A study of Homo sapiens with 34 samples.

Results

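The interval from day 2 to day 6 of the cardiac differentiation of human embryonic stem cells (ESCs) was examined in WT cells, as RNA sequencing counts. Its members are the 4 libraries labelled as WT cells at days 2 and 6, 2 at each day, of 34 libraries in 15 groups. The cells were H1, an established human ESC line. WT denotes H1 cells infected with a lentivirus that carried an shRNA against GFP or no insert, and which library carried which is not given in the sources used here. The study also held days 0 and 10, and 3 further lines in which 1 of the transcription factors ZNF503, NKX2-5 and ZEB2 was knocked down by shRNA. The protocol of all lines gave CHIR99021, which inhibits GSK3β and so activates WNT signalling, for the first 24 hours. IWP2, which blocks the secretion of WNT proteins, was given from day 2 to day 5. Day 6 cells had thus passed through IWP2, and whether day 2 cells were taken before its addition is not stated. The basal medium held no FGF2, TGFβ or insulin, and insulin was added only from day 7, so day 6 cells had received none since differentiation began.

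The protocol takes pluripotent cells through the events of gastrulation. WNT activation first produces mesendoderm, the common precursor of mesoderm and endoderm that forms in the primitive streak, and later inhibition of WNT favours cardiac mesoderm. Cardiac progenitors (CPs) then activate a set of transcription factors, and as they become cardiomyocytes (CMs) they assemble sarcomeres, the repeated units of myosin, actin, titin and troponin that contract.

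With 1 row taken per gene, the day 2 libraries held 28272228 and 14630405 counts and the day 6 libraries 24176528 and 42824868. Levels are given as CPM, a gene's counts relative to the TMM-scaled size of its library, in the order replicate 1 and replicate 2. CPM is not divided by gene length, so it compares libraries and not genes. A count of 3 was worth 0.0968 and 0.187 CPM at day 2 and 0.131 and 0.0713 CPM at day 6. Where both libraries of a day held at most 3 counts of a gene, the fold change is given as a bound against 3 counts per library. The replicates of a day had Spearman correlations of 0.995 at day 2 and 0.993 at day 6 across genes, against 0.874 to 0.882 between libraries of the 2 days. The labelled state was checked against cardiomyocyte markers, whose summed level over 8 genes rose from 133 and 136 to 40688 and 32772 CPM. Most of the day 6 sum was TTN, with 56.8 and 63.3 CPM at day 2 and 30101 and 24439 CPM at day 6. Taken singly, all 8 genes were higher at day 6 at 5% FDR, with a median log2 fold change of 10.1. These are bulk samples, so fewer cells of a type and less RNA per cell cannot be told apart, for any gene below.

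Genes of pluripotency and the primitive streak fell across the interval, and genes of the heart, of BMP signalling and of the matrix rose. Of 17217 genes tested, 841 (4.88%) were called higher and 596 (3.46%) lower at day 6, 8.35% in all, at 8-fold and a 1% false discovery rate (FDR) in edgeR's quasi-likelihood test. A further threshold, 5% FDR with no fold limit, is what "rose" and "fell" mean below for single genes, and 4458 genes (25.9%) rose and 4123 (23.9%) fell by it, 49.8% in all. TMM scaling moved the median log2 fold change by 0.180, and with no scaling factors these counts were 3424 and 5459. The libraries of the 2 days did not overlap for 13562 genes (78.8%). Counts of list members given below are to be read beside these shares of all genes. The median log2 fold change was 5.21 among genes called higher and -4.26 among those called lower. Day 2 libraries held at most 3 counts for 311 of the first and day 6 libraries for 176 of the second, and with these genes at their bounds the medians were 4.31 and -3.70. Genes called higher took 0.304% and 0.306% of the counts at day 2 and 10.9% and 9.88% at day 6. Those called lower took 2.87% and 2.96% at day 2 and 0.114% and 0.137% at day 6. Protein coding genes made up 785 of the genes called higher and 497 of those called lower, and the noncoding rows, 2311 of those tested, made up 56 and 99. The genes nearest the 8-fold limit were ITPR1 (log2 fold change 3.00209) just inside and DACH1 (2.99784) just outside among the rises, and BARX1 (-3.00131) and RELL2 (-2.99613) among the falls. BARX1 lay at -2.37 without day 6 replicate 2.

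**Figure D1:**
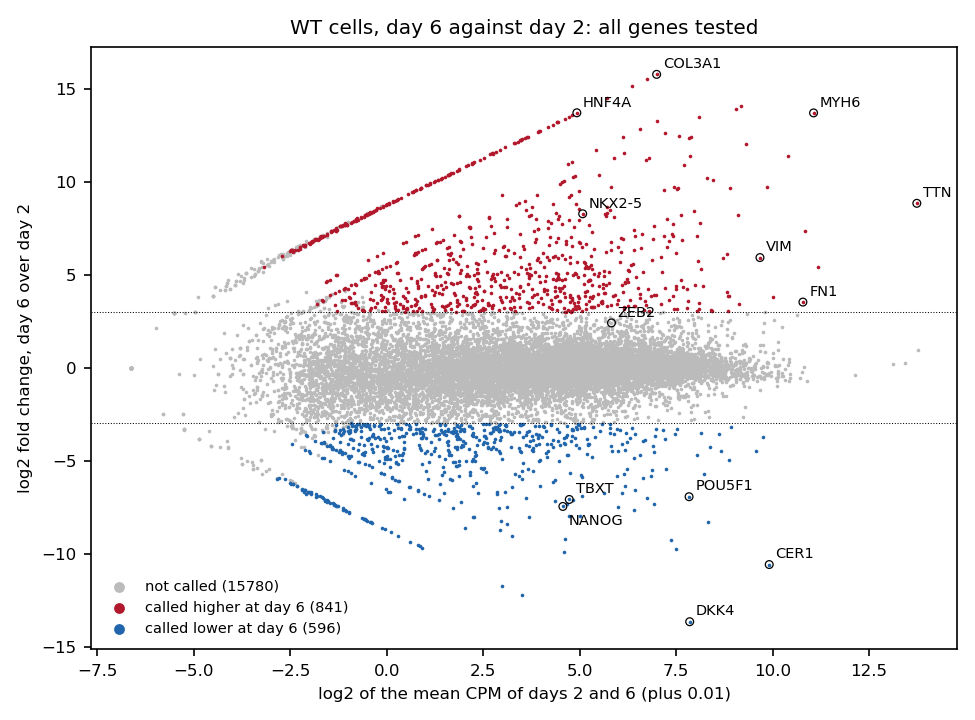
Log2 fold change of day 6 over day 2 in WT cells (vertical axis) against the log2 of the mean CPM of both days plus 0.01 (horizontal axis), with 1 point per gene tested. Red points are the 841 genes called higher and blue points the 596 called lower, dotted lines mark 8-fold, and the straight outer edges are genes with no counts on 1 of the 2 days, whose fitted fold change is set by the level on the other day.

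The 10 coding genes with the largest fitted rise were led by COL3A1 and MYBPC3. Where day 2 held 0 counts the order depends on the prior count. Against 3 counts MYL4 (at least 8252-fold higher), TNNI1 (at least 7477-fold higher) and UNC45B (at least 3846-fold higher) lay above COL3A1. MYH6, with more than 3 counts in each day 2 library, was 13215-fold higher by the fit, also above COL3A1. COL3A1 (chr2:189839099-189877472, GRCh37), which encodes the chain of type III collagen, had 0 and 0 CPM at day 2 and 178 and 331 CPM at day 6, at least 1797-fold higher (edgeR adjusted p = 3.74e-06). MYBPC3 (chr11:47352957-47374253), the myosin-binding protein C of heart muscle, had 0 and 0 CPM at day 2 and 223 and 205 CPM at day 6 and was at least 1508-fold higher. The 8 others by the same rule were CBLN2, MYL4, TNNI1, HNF4A, MYH6, LUM, UNC45B and CDH6. All of them lay at most at 0.323 CPM at day 2. That their day 6 libraries did not overlap those of day 2 was a condition of the rule. The day 6 replicates were not equally high in all: COL3A1, HNF4A, LUM and CDH6 were higher in replicate 2, and the sarcomere genes MYBPC3, MYL4, TNNI1, MYH6 and the myosin chaperone UNC45B were higher in replicate 1.

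Among the 10 coding genes with the largest fitted fall were secreted signals and inhibitors, along with genes of other kinds. DKK4, a secreted inhibitor of WNT, had 457 and 466 CPM at day 2 and 0.0871 and 0 CPM at day 6 and was at least 4568-fold lower (edgeR adjusted p = 1.04e-09). CER1 (chr9:14719722-14722731), a secreted inhibitor of NODAL and BMP, fell from 1900.2 and 1950.2 to 1.18 and 1.28 CPM, a log2 fold change of -10.59 ± 0.20 (SE, as throughout). FGF17, an FGF of the primitive streak, fell from 334 and 383 to 0.697 and 0.238 CPM, and GAL, the precursor of the neuropeptide galanin, from 327 and 329 to 0.0436 and 0.808 CPM. WNT3A, SHOX2, RFPL3 and C22orf42 went from between 2.55 and 4.94 CPM in the day 2 libraries to 0 counts in both day 6 libraries, so their rank rests on the prior count and their falls are bounds of at least 30.1-fold to 37.1-fold. CDA, cytidine deaminase, fell from 47 and 50.8 to 0 and 0.119 CPM, and PRAC1 had 18.7 and 19.1 CPM at day 2 and 0 and 0.0475 CPM at day 6.

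Among noncoding rows, the largest fitted rises were of SMPX, MIR675 and LINC00348, all with 0 counts at day 2, and the largest fitted falls of MIR124-1HG, EGFLAM-AS4 and PPIAP46, all at the floor at day 6. With 0 to 2 counts in the lower libraries, these ranks depend on the prior count, and LINC00348 was at least 30.7-fold higher. SMPX had 0 and 0 CPM at day 2 and 119.9 and 89 CPM at day 6. Its row is a noncoding transcript of a gene that encodes a small muscle protein, and is read as that gene. MIR675 is contained in H19, so reads of the 2 rows cannot be told apart. MIR124-1HG, the host transcript of a neuronal microRNA, had 22.3 and 22.6 CPM at day 2 and 0 and 0 CPM at day 6 and was at least 222-fold lower. EGFLAM-AS4 runs antisense to EGFLAM, the library kit marks strand but the counting is not stated to use it, and PPIAP46 is a pseudogene of a multigene family, so both values are uncertain.

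In absolute share of the counts, the largest gains were of TTN, TPM1, MYH6, NEBL and FN1. Titin, the giant protein that spans from the Z-disc to the M-line, is encoded by TTN (chr2:179390716-179695529), which rose from 56.8 and 63.3 to 30101 and 24439 CPM. Tropomyosin 1 (TPM1) rose from 107 and 106 to 4868 and 4129 CPM, and nebulette (NEBL), a Z-disc protein, from 23.8 and 21.6 to 4104 and 3243 CPM. The largest losses were of CER1, COL6A1, CNTNAP2, IFITM1 and SERPINB9. COL6A1, a type VI collagen chain, fell from 1515 and 1699 to 101 and 143 CPM. CNTNAP2, a neuronal adhesion protein, fell from 1469.8 and 1446 to 58 and 73.3 CPM, and IFITM1, an interferon-induced membrane protein that ESCs also express, from 881 and 942 to 28.6 and 29.6 CPM. SERPINB9, an inhibitor of granzyme B, fell from 896 and 867 to 87.6 and 104 CPM.

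**Figure D2:**
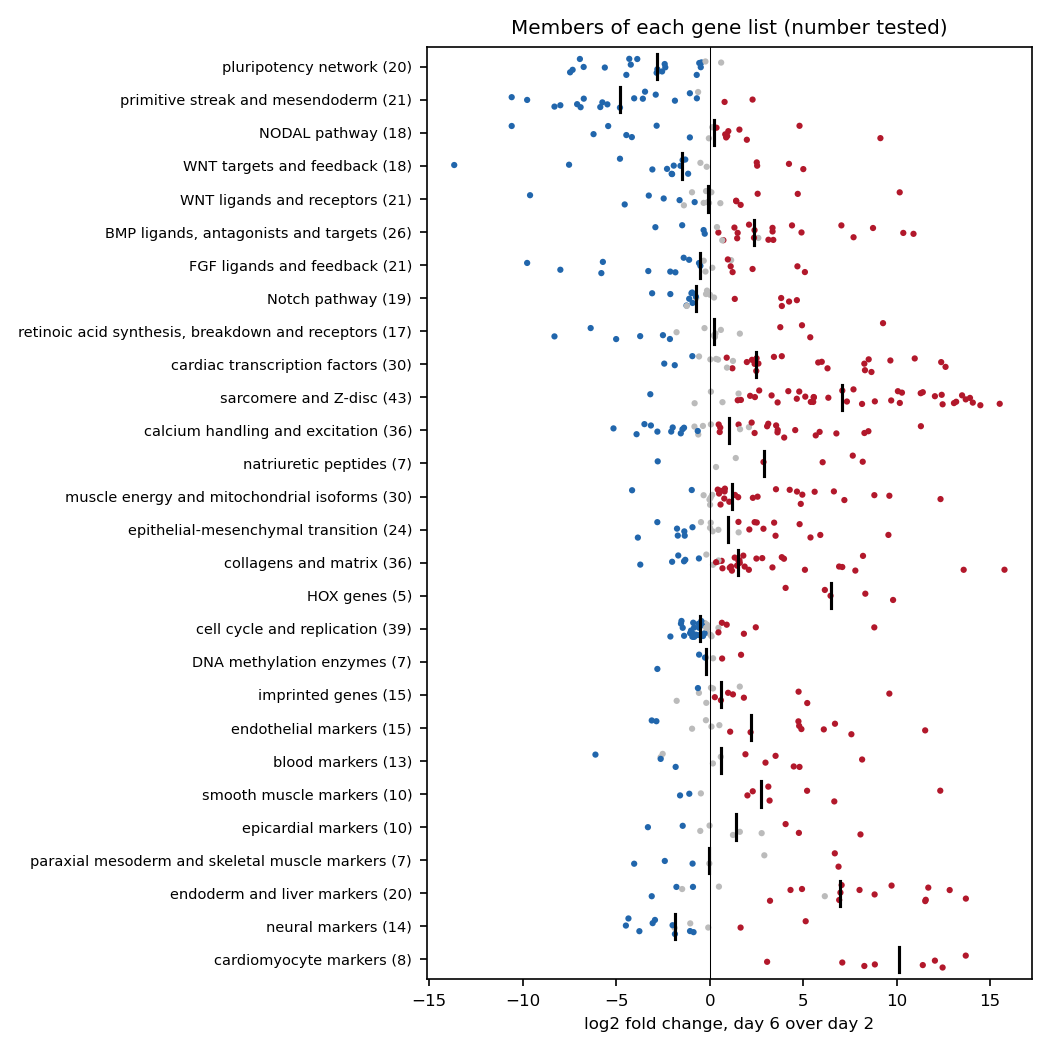
Log2 fold change of day 6 over day 2 (horizontal axis) for the tested members of 28 gene lists and marker lists, 1 point per gene and the list's median as a black bar. Red members rose and blue members fell at 5% FDR, and grey members did not pass; the sarcomere list lies furthest right of the 20 gene lists and the primitive streak list furthest left.

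The pluripotency network was reduced further from its day 2 level. These genes form the transcriptional circuit that keeps ESCs undifferentiated. Of 20 tested, 18 fell and 2 (LIN28B and KLF4) did not pass, against 23.9% of all genes that fell. Called lower were 9, against 3.46% of all genes, with a median log2 fold change of -2.82 where that of all genes tested was 0.000737. POU5F1, the central factor of the circuit, had 452 and 454 CPM at day 2 and 3.62 and 3.71 CPM at day 6, a log2 fold change of -6.95 ± 0.12 (edgeR adjusted p = 9.26e-10). NANOG fell from 47.4 and 46.6 to 0.218 and 0.285 CPM, and SOX2 from 40 and 33.6 to 2.48 and 2.52 CPM. In each of the 3 genes the day 6 libraries were close together and far below those of day 2, and POU5F1 and NANOG have near-identical pseudogenes that could take or give reads. The fall was not of equal size across the list. LIN28A, an RNA-binding protein that blocks let-7 maturation, still had 1019 and 1020.5 CPM at day 6 against 1377 and 1400.4 CPM at day 2, and its log2 fold change of -0.45 ± 0.11 lost the 5% threshold when either day 2 library was left out (edgeR adjusted p up to 0.0605). DNMT3B, the de novo DNA methyltransferase of pluripotent cells, fell from 403 and 421 to 48.6 and 69.2 CPM. KLF4 had 1 and 2.24 CPM at day 2 and 1.96 and 2.71 CPM at day 6, and its libraries overlapped.

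Genes of the primitive streak and mesendoderm were high at day 2 and were largely gone at day 6. Of 21 tested, 18 fell, 14 of them called, 2 rose and 1 did not pass, with a median log2 fold change of -4.80. TBXT (brachyury), a factor of the streak, had 51.5 and 53.8 CPM at day 2 and 0.305 and 0.428 CPM at day 6, and MIXL1 had 96.1 and 99.2 CPM at day 2 and 1.57 and 0.475 CPM at day 6. Their log2 fold changes were -7.09 ± 0.25 and -6.74 ± 0.48, the latter -7.66 without day 6 replicate 1 and -5.95 without replicate 2. EOMES, a T-box factor that acts upstream of MESP1, fell from 565 and 616 to 11 and 11 CPM. GSC, a homeobox gene of the anterior streak, fell from 68.1 and 63.1 to 0.61 and 0.499 CPM. MESP1, a transient factor of early cardiac mesoderm, fell from 6.04 and 6.42 to 0.871 and 0.333 CPM. APLNR, the apelin receptor of early mesoderm, kept most of its level, with 74.4 and 87.3 CPM at day 2 and 51.3 and 48.9 CPM at day 6. The 2 members that rose were HAS2, a hyaluronan synthase that early heart tissue also uses, from 346 and 346 to 687 and 511 CPM, and FGF8, from 6.36 and 3.61 to 30.6 and 19.5 CPM.

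Of the signals that pattern the streak, some fell and others rose. NODAL, the TGFβ ligand that maintains mesendoderm, fell from 145 and 147 to 2.18 and 4.28 CPM, a log2 fold change of -5.43 ± 0.24 (edgeR adjusted p = 4.02e-08) that was -6.06 without day 6 replicate 2. Its inhibitors LEFTY1 and LEFTY2 fell as well, from 9.49 and 10 to 0.349 and 0 CPM and from 2.9 and 3.86 to 0.0871 and 0.238 CPM, and so did its coreceptor CRIPTO, from 775 and 763 to 34.2 and 35.5 CPM. The related coreceptor CFC1 rose from 0.904 and 0.872 to 27.8 and 22.2 CPM. LEFTY1 and LEFTY2 resemble each other closely and CFC1 has a near-identical copy, CFC1B, so how reads were split within these pairs is uncertain. INHBA, a subunit of activin, had 0 and 0 CPM at day 2 and 2.22 and 2.85 CPM at day 6 and was at least 17.9-fold higher. The intracellular members SMAD2, SMAD3 and SMAD4 rose by at most 0.99 on the log2 scale, and SMAD4 lost the 5% threshold when any 1 of the 4 libraries was left out (edgeR adjusted p up to 0.120). Over the NODAL list, 9 of 18 tested members rose and 7 fell, with a median of 0.25.

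For WNT, the ligands WNT3, WNT3A and WNT8A fell and WNT2 and WNT11 rose. WNT3 fell from 59.6 and 65.8 to 7.06 and 6.06 CPM, WNT3A had 3.68 and 3.49 CPM at day 2 and 0 and 0 CPM at day 6, and WNT8A had 1.55 and 1.43 CPM at day 2 and 0 and 0.0951 CPM at day 6. WNT2 had 0 and 0 CPM at day 2 and 6.93 and 3.71 CPM at day 6 and was at least 37.5-fold higher, and WNT11, a ligand of the noncanonical branch, rose from 0.968 and 2.37 to 41.4 and 38.1 CPM. Of 21 ligands and receptors tested, 6 rose, 6 fell and 9 did not pass, near the shares of all genes (25.9% rose and 23.9% fell). Among 18 targets and feedback inhibitors, 12 fell and 4 rose, with a median of -1.51. SP5, a direct target of β-catenin, had 75.9 and 79 CPM at day 2 and 2.79 and 2.76 CPM at day 6, a log2 fold change of -4.80 ± 0.21. AXIN2, the usual reporter gene of the pathway, fell less, from 54.7 and 58 to 20.6 and 17.5 CPM (-1.57 ± 0.17). DKK1 fell from 25.2 and 25.5 to 11.6 and 7.11 CPM and SFRP2, a secreted WNT antagonist, from 125.4 and 127 to 0.784 and 0.618 CPM. The 4 that rose were LEF1, LGR5, SFRP5 and FRZB, and LEF1, a DNA-binding partner of β-catenin, rose from 8.91 and 10.6 to 55.9 and 54.5 CPM.

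Promoters of a pair of genes that fell, SP5 and MIXL1, are shown because each held a copy of the TCF/LEF motif, the sequence at which β-catenin acts with TCF and LEF proteins. The motif was searched as CTTTGAT or CTTTGTT on both strands, and 6.66% of 27305 RefSeq promoters held it in the 250 bases before the start. Each sequence ends at the base before the start, on build GRCh38.p14, 5′ to 3′ along the gene, with the motif in capitals. A match is only a description of these letters.
SP5 (chr2:170715212-170715336, plus strand): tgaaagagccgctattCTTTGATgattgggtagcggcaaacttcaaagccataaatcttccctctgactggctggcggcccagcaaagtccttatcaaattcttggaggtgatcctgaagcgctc
MIXL1 (chr1:226223564-226223663, plus strand): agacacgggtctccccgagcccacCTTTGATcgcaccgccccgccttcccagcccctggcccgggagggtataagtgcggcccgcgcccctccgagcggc
In SP5 the motif lay at -109 to -103 from the start, and in MIXL1 at -76 to -70.

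Most of the BMP signalling genes tested rose. BMPs are TGFβ-family ligands required for cardiac mesoderm. Of 26 tested, 19 rose, 11 of them called, 4 fell and 3 did not pass, and the median was 2.38. The ligand BMP4 had 10.8 and 8.97 CPM at day 2 and 101 and 103 CPM at day 6, a log2 fold change of 3.36 ± 0.14 (edgeR adjusted p = 2.33e-08), and BMP2 rose from 23.5 and 24.5 to 275 and 229 CPM. BMP5 had 0.194 and 0.249 CPM at day 2 and 458 and 371 CPM at day 6. BMP10, a ligand of the developing heart, had 0 and 0 CPM at day 2 and 7.93 and 4.16 CPM at day 6 and was at least 42.6-fold higher. All 4 ligands were thus higher at day 6 in both libraries. Inhibitors and feedback genes moved with them: NOG had 0.0646 and 0.0623 CPM at day 2 and 9.24 and 8.75 CPM at day 6, BMPER rose from 1.42 and 1.99 to 394 and 285 CPM and BAMBI, a decoy receptor, from 27.9 and 24.9 to 606 and 510.0 CPM. The target ID2 rose from 82.7 and 76.7 to 412 and 426 CPM. Of the antagonists, CHRD (chordin) fell from 37.4 and 41.6 to 5.45 and 5.09 CPM. CHRDL1, BMPR2 and TWSG1 also fell, and each of these 3 lost the 5% threshold in 3 of the 4 fits that left out 1 library (edgeR adjusted p up to 0.289). Without day 2 replicate 1 or day 6 replicate 1, only 1 member of the list fell.

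FGF genes split by ligand. FGF4 and FGF17 fell, FGF4 from 52.1 and 52.8 to 0.261 and 0.166 CPM, and FGF19 fell by 5.72 on the log2 scale. FGF8, FGF9 and FGF10 rose, FGF10, a ligand of the second heart field, from 1.68 and 1.81 to 45 and 44.4 CPM (4.69 ± 0.22). Targets and feedback genes of the pathway did not move one way. ETV4 fell from 65.7 and 62.3 to 1.48 and 0.927 CPM and SPRY4 from 316 and 351 to 38.8 and 29.8 CPM, while DUSP6, a phosphatase of ERK, rose from 230.2 and 228 to 633 and 435 CPM. In all, 6 of 21 rose and 11 fell, where 25.9% of all genes rose and 23.9% fell.

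Of 19 Notch genes, 5 rose, 8 fell and 6 did not pass, where 25.9% of all genes rose and 23.9% fell. JAG1, a ligand, rose from 21.4 and 22.5 to 386 and 249 CPM, and HEY1, a target that patterns the heart chambers, from 0.936 and 1.37 to 20 and 11.7 CPM. DLL3 fell from 18.6 and 20.9 to 3.44 and 1.4 CPM. HES1, the most general target, fell by 0.94 on the log2 scale.

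Among 17 genes of retinoic acid metabolism and response, 4 rose and 6 fell, where 25.9% of all genes rose and 23.9% fell. CYP26A1, which degrades retinoic acid, fell from 620.3 and 668 to 1.87 and 2.14 CPM, a log2 fold change of -8.31 ± 0.18. RARB, a receptor gene that is itself a target of retinoic acid, had 0.129 and 0 CPM at day 2 and 67.1 and 42.7 CPM at day 6, and RARG fell from 44.4 and 49 to 3.4 and 3.64 CPM. ALDH1A1, a retinaldehyde dehydrogenase, had 1.48 and 1.93 CPM at day 2 and 38 and 99.7 CPM at day 6, so its 2 day 6 libraries differed among themselves by more than those of RARB.

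**Figure D3:**
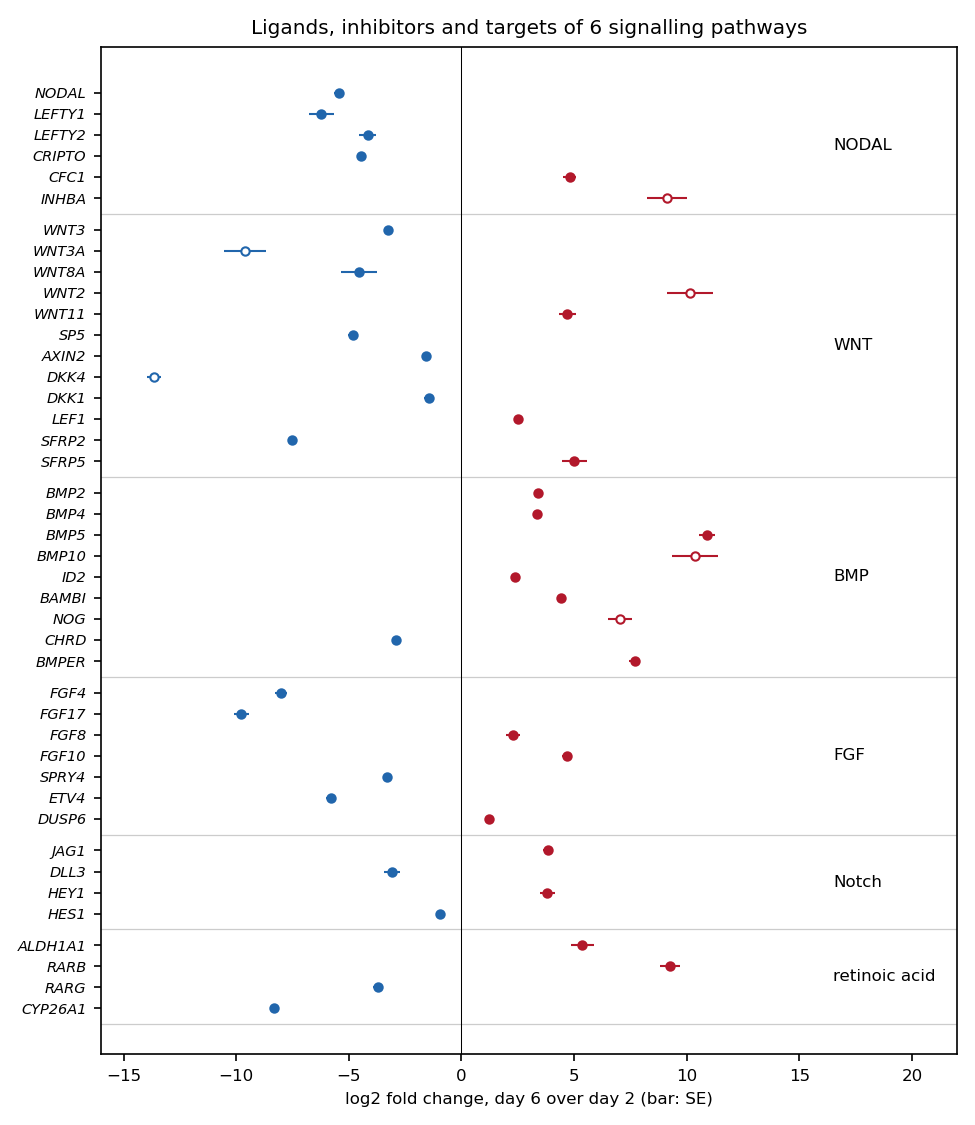
Log2 fold change of day 6 over day 2 (horizontal axis, bars are SE) for 42 ligands, inhibitors and targets of 6 signalling pathways. Red genes rose and blue genes fell at 5% FDR, and open circles are genes at 3 counts or fewer in both libraries of 1 day; within the NODAL, WNT and FGF pathways ligands of both directions stand side by side, while CHRD is the only BMP gene plotted to the left.

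Most cardiac transcription factors rose across the interval. Of 30 tested, 21 rose, 13 of them called, 3 fell and 6 did not pass, with a median of 2.50. NKX2-5 (chr5:172659112-172662314), a homeobox gene of CPs and one of the 3 genes the study targeted, had 0.194 and 0.249 CPM at day 2 and 84.6 and 49.9 CPM at day 6, a log2 fold change of 8.27 ± 0.48 (edgeR adjusted p = 3.07e-07). Both day 6 libraries were far above day 2, and replicate 1 was the higher of them. HAND1 and HAND2, basic helix-loop-helix factors of the ventricles, had 0.194 and 0.1246 CPM at day 2 and 61.3 and 64.6 CPM at day 6 and 0.258 and 0.249 CPM at day 2 and 115 and 93.2 CPM at day 6, respectively. MEF2C, a MADS-box factor of muscle, rose from 1.07 and 1.37 to 1117 and 796 CPM. ISL1, a factor of the second heart field, rose from 1.9 and 2.43 to 188 and 145 CPM. TBX5, of the first heart field, rose from 0.194 and 0.374 to 14.6 and 18.6 CPM and TBX20 from 4.58 and 3.49 to 267 and 194 CPM. MYOCD, the SRF coactivator myocardin, had 0.129 and 0 CPM at day 2 and 551 and 399 CPM at day 6, and SMYD1, a muscle methyltransferase, had 0 and 0.1246 CPM at day 2 and 337 and 254 CPM at day 6 and was at least 2084-fold higher.

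The GATA factors were already present at day 2. GATA4 had 20.4 and 23.4 CPM at day 2 and 120.4 and 127 CPM at day 6, a log2 fold change of 2.50 ± 0.19. GATA6 had 69.5 and 65.1 CPM at day 2 and 83.4 and 87 CPM at day 6, and its change of 0.34 ± 0.14 did not pass (edgeR adjusted p = 0.0612), although its libraries did not overlap and it passed in 4 of the alternatives. ZEB2 (chr2:145121931-145278624) and ZNF503 (chr10:77157588-77161522), the other 2 genes targeted in the study, rose by a smaller fold than NKX2-5, whose day 2 libraries held 6 and 4 counts. In mean CPM the gain was 77.1 for ZEB2, 67.0 for NKX2-5 and 7.45 for ZNF503. ZEB2, a zinc-finger repressor, had 18.2 and 17.9 CPM at day 2 and 97.3 and 93 CPM at day 6 (2.40 ± 0.21, edgeR adjusted p = 7.37e-06), and ZNF503 had 1.1 and 1.99 CPM at day 2 and 8.76 and 9.22 CPM at day 6 (2.601 ± 0.37, edgeR adjusted p = 2.47e-04). The 3 factors that fell were IRX4, FOXC1 and PRDM1. IRX4, a factor of ventricular CMs, fell from 9.59 and 9.03 to 2.48 and 2.59 CPM. FOXC1, of early mesoderm, fell from 60.5 and 67.5 to 13.9 and 9.94 CPM.

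Sarcomere genes had the highest median of the 20 gene lists. Of 43 tested, 38 rose, 33 of them called, 1 fell and 4 did not pass, and the median log2 fold change was 7.09. The day 2 libraries held at most 3 counts for 15 of them. MYH6, the α-myosin heavy chain that embryonic and atrial CMs use, had 0.323 and 0.311 CPM at day 2 and 4644 and 3903 CPM at day 6, a log2 fold change of 13.69 ± 0.39 (edgeR adjusted p = 2.81e-09). MYH7, its β counterpart, had 0.0646 and 0.0623 CPM at day 2 and 428 and 339 CPM at day 6. The 2 genes are near-identical neighbours and 1 best hit was kept per read, so the split of reads between them is uncertain. Cardiac troponin T (TNNT2) rose from 0.258 and 0.374 to 1422 and 1134 CPM, and troponin C (TNNC1) from 0.71 and 0.249 to 747 and 516 CPM. For troponin I, the fetal isoform TNNI1 had 0.0323 and 0.1246 CPM at day 2 and 1282 and 839 CPM at day 6, at least 7477-fold higher, whereas the adult isoform TNNI3 rose only from 5.07 and 2.87 to 13.7 and 12.3 CPM (1.66 ± 0.28).

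The myosin light chains differed in the same manner. MYL4 had 0.0968 and 0 CPM at day 2 and 1339 and 1002 CPM at day 6, at least 8252-fold higher. MYL7, the atrial regulatory light chain that all early CMs express, rose from 1.07 and 0.872 to 3117 and 2255 CPM, and MYL3, the ventricular essential light chain, from 0.355 and 0.374 to 83.5 and 67.5 CPM. MYL2, the ventricular regulatory light chain, was listed at 0 counts in all 4 libraries. Cardiac α-actin (ACTC1) rose from 2.1 and 2.43 to 2044 and 1676 CPM, and α-actinin 2 (ACTN2), which anchors actin at the Z-disc, from 1.45 and 0.934 to 173 and 170.3 CPM. TNNT1, the slow skeletal troponin T, was the exception and fell from 30.2 and 30.3 to 2.31 and 4.18 CPM. In 34 of the 43 genes day 6 replicate 1 was higher than replicate 2, against 8398 of the 17217 genes tested (48.8%).

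Promoters of 4 sarcomere genes called higher are shown because they hold motifs bound by factors of heart and muscle. MEF2 and CArG boxes bind MEF2 proteins and SRF, and are palindromic, so each was found on both strands. They were searched by their usual consensus, and GATA as AGATAA and TATA as TATAAA on both strands. Of the 27305 promoters, 1.80% held a MEF2 box, 1.14% a CArG box, 9.37% a GATA motif and 11.1% a TATA box in the 250 bases before the start. Sequences are from RefSeq on GRCh38.p14, end at the base before the start, and carry the motifs in capitals.
MYL7 (chr7:44141333-44141442, minus strand): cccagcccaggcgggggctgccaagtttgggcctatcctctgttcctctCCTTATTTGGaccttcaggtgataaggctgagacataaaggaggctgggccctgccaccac
ACTC1 (chr15:34795550-34795679, minus strand): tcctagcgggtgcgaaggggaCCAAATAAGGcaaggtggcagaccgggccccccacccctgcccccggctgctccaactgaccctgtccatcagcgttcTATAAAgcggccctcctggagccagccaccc
TTN (chr2:178807424-178807603, minus strand): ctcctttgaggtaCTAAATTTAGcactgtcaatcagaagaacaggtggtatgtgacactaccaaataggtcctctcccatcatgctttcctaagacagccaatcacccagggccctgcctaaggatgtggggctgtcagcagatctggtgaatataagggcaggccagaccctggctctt
MYBPC3 (chr11:47352703-47352812, minus strand): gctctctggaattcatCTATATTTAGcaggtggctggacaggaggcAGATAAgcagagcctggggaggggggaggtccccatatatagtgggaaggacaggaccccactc
MYL7 held a CArG box at -61 to -52. ACTC1 held one at -109 to -100 and a TATA box at -31 to -26. TTN held a MEF2 box at -167 to -158, and MYBPC3 one at -94 to -85 with a GATA motif at -64 to -59. RefSeq promoters were given for 75.3% of the genes called higher, 65.4% of those called lower and 75.9% of all tested, so motif shares were not compared between these classes.

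Genes of calcium handling and excitation rose and fell. Of 36 tested, 19 rose, 11 fell and 6 did not pass, with a median of 1.05 (0.75 with genes at the floor put at their bounds). PLN (phospholamban), which restrains the calcium pump of the sarcoplasmic reticulum, had 0.0646 and 0 CPM at day 2 and 117 and 118 CPM at day 6 and was at least 830.2-fold higher. The pump itself, ATP2A2, was already at 198 and 206 CPM and reached 297 and 266 CPM. Its log2 fold change of 0.48 ± 0.12 passed (edgeR adjusted p = 0.00945) but did not when either day 2 library or day 6 replicate 1 was left out (edgeR adjusted p up to 0.0763). The calcium release channel RYR2 rose from 73.1 and 70.1 to 719 and 482 CPM. CASQ2, the calcium store protein, had 1.81 and 1.43 CPM at day 2 and 2 and 1.45 CPM at day 6, and its libraries overlapped.

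Among channels, CACNA1D, an L-type calcium channel of pacemaking cells, rose from 0.613 and 0.498 to 60.5 and 65.4 CPM, and HCN4, the pacemaker channel, from 6 and 6.66 to 32.2 and 34.1 CPM. Against these, the T-type calcium channel CACNA1G fell from 22.6 and 22.1 to 0.566 and 0.666 CPM and the potassium channel KCNJ2 from 22.9 and 28.5 to 1.83 and 1.59 CPM. The libraries of the 2 days did not overlap for either gene.

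Natriuretic peptides are hormones released by heart muscle. NPPA had 0 and 0 CPM at day 2 and 0.61 and 1.16 CPM at day 6, at least 6.26-fold higher, and NPPB had 0 and 0.249 CPM at day 2 and 29.3 and 23.6 CPM at day 6. Of 7 genes of this system tested, 4 rose and 1 fell. Among 30 genes of muscle energy supply, 23 rose and 2 fell, with a median of 1.20. CKM, muscle creatine kinase, had 0 and 0 CPM at day 2 and 27 and 20.8 CPM at day 6, at least 169-fold higher, and MB (myoglobin) had 0.0646 and 0.1246 CPM at day 2 and 11.2 and 6.94 CPM at day 6. The 2 that fell were LDHA, the lactate dehydrogenase subunit of glycolytic cells, from 197 and 203 to 105 and 100.4 CPM, and COX7A1, from 1.55 and 0.872 to 0.174 and 0 CPM. COX7A1 fell to near the floor and lost the 5% threshold without day 2 replicate 1 (edgeR adjusted p = 0.0604).

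**Figure D4:**
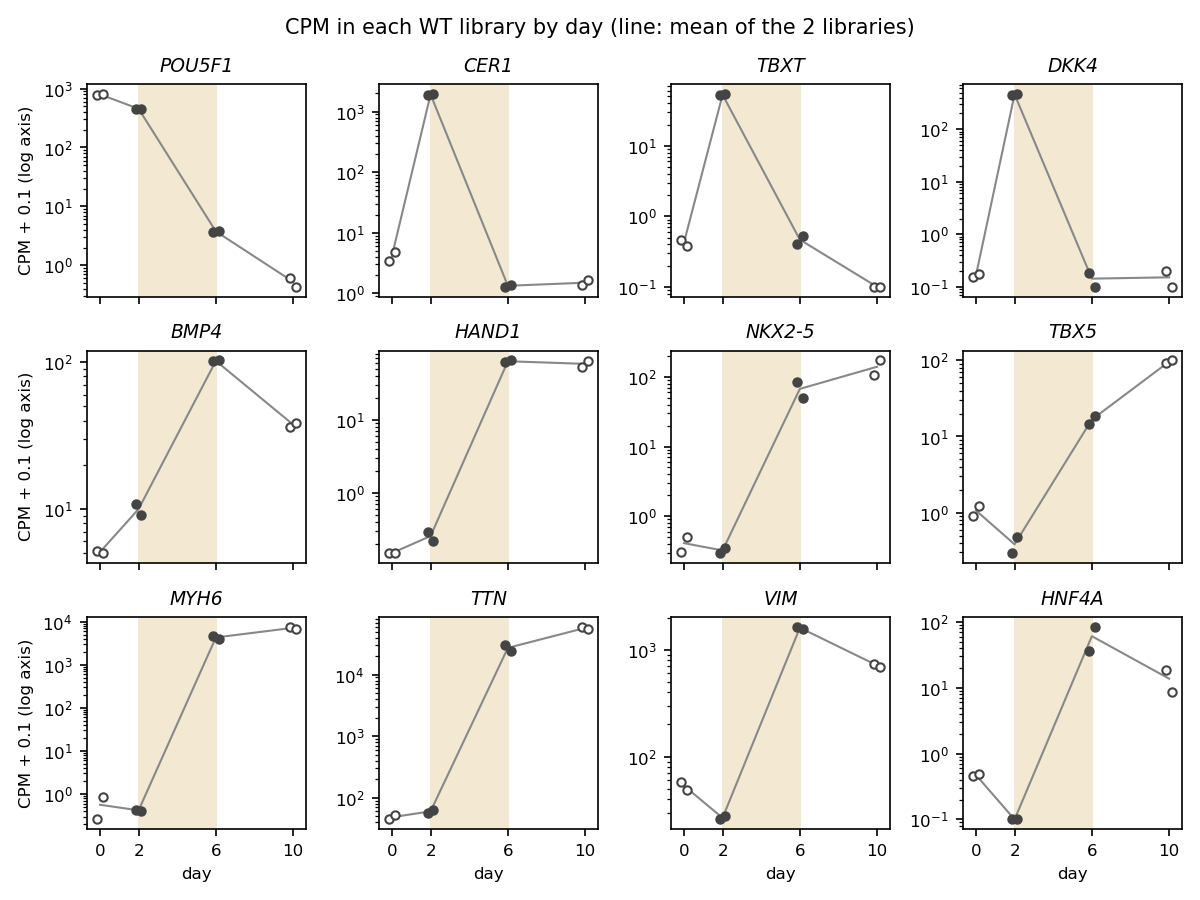
CPM plus 0.1 (vertical axis, logarithmic) of 12 genes in each WT library by day (horizontal axis), with filled circles for the libraries compared, open circles for days 0 and 10, and a line through the means of the 2 libraries. POU5F1 fell throughout, CER1, TBXT and DKK4 were high at day 2 alone, and the others were first high at day 6; HNF4A is the gene with the largest gap between the day 6 libraries.

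Genes of the epithelial-mesenchymal transition changed in the direction of mesenchyme for some members and not for others. E-cadherin (CDH1) fell from 229 and 231 to 26.8 and 38.8 CPM and vimentin (VIM) rose from 25.8 and 27.6 to 1641 and 1569 CPM, log2 fold changes of -2.80 ± 0.30 and 5.91 ± 0.13. Fibronectin (FN1) rose from 272 and 295 to 3238 and 3254 CPM. The repressors of CDH1 were not alike: ZEB1 rose from 1.55 and 2.06 to 75.2 and 71.4 CPM and SNAI2 from 4.78 and 4.67 to 16.2 and 24.7 CPM, while SNAI1 fell from 13.9 and 13.1 to 3.57 and 4.61 CPM. TWIST2 fell from 1.42 and 1.87 to 0.131 and 0.0951 CPM, to near the floor, and PRRX1 had 0 and 0 CPM at day 2 and 1.87 and 4.9 CPM at day 6. Of 24 tested, 11 rose, 7 fell and 6 did not pass, and day 6 replicate 2 was the higher library in 16. The keratins KRT8, KRT18 and KRT19, epithelial filaments, were among those that rose.

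Of 36 collagen and matrix genes, 27 rose and 6 fell, with a median of 1.49. LUM (lumican), a proteoglycan of collagen fibrils, had 0 and 0 CPM at day 2 and 32.6 and 79.2 CPM at day 6, at least 394-fold higher. In 27 of the 36, day 6 replicate 2 was the higher library.

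Among HOX genes, which set position along the body axis, 22 of 27 did not pass the filter on low counts. The 5 tested, HOXB2 to HOXB6, all lie in 1 cluster and all rose, 3 of them called. At day 2, 3 of the 5 held at most 3 counts in both libraries, so these could pass the filter only through other days. That all 5 rose is therefore set in part by the filter. It was not read against the shares of all genes, and no common direction of HOX genes is drawn from it. HOXB4 had 0 and 0 CPM at day 2 and 2.79 and 5.3 CPM at day 6, at least 28.5-fold higher. HOXB6 had 0 and 0 CPM at day 2 and 0.261 and 2.52 CPM at day 6, and it lost the 5% threshold without day 2 replicate 1 or day 6 replicate 2. Its fitted log2 fold change of 8.32 was 5.74 without day 6 replicate 2.

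More cell cycle genes fell than rose. Of 39 tested, 25 fell, 6 rose and 8 did not pass, with a median of -0.53. MKI67, the proliferation antigen, fell from 311 and 346 to 104 and 127 CPM, and cyclin D1 (CCND1) from 135 and 139 to 29.8 and 33.7 CPM. Among the inhibitors, CDKN1C rose from 20.4 and 24 to 63.4 and 92.9 CPM and CDKN2B had 0 and 0 CPM at day 2 and 1.44 and 2.57 CPM at day 6. Imprinted genes, expressed from 1 parental copy, included H19, which rose from 0.452 and 0.498 to 278 and 458 CPM, and its neighbour IGF2, which rose from 3.91 and 4.24 to 133 and 167 CPM. Of 15 tested, 8 rose and 1 fell, and day 6 replicate 2 was the higher library in 11. Without it, 7 rose and 3 fell. Among 7 DNA methylation enzymes, 2 (DNMT3A and TET2) rose and 3 (DNMT1, DNMT3B and TET1) fell. TET1 lost the 5% threshold when any 1 of the 4 libraries was left out (edgeR adjusted p up to 0.188).

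Markers of cell types other than CMs were measured in the same libraries. The list of endoderm and liver markers rose with the cardiac genes: 14 of 20 tested members rose, all 14 of them called, 3 fell and 3 did not pass. Their median log2 fold change was 6.96, or 4.43 with the 9 genes at the floor at day 2 put at their bounds. Without day 2 replicate 1, 13 rose and 8 were called. The summed level was 170 and 190 CPM at day 2 and 740 and 1553 CPM at day 6. HNF4A, a nuclear receptor of liver and visceral endoderm, had 0 and 0 CPM at day 2 and 36.8 and 84.7 CPM at day 6, at least 428-fold higher. TTR, a thyroid hormone carrier, had 0 and 0.0623 CPM at day 2 and 131 and 246 CPM at day 6, AFP, the fetal albumin, had 0.0646 and 0 CPM at day 2 and 95.4 and 186 CPM at day 6, and the fibrinogen chain FGB had 0 and 0.0623 CPM at day 2 and 43.5 and 126 CPM at day 6. In these 4 genes, day 6 replicate 2 was above replicate 1, and across the list it was the higher library in 19 of 20. ALB, the adult counterpart, had 0 and 0 CPM at day 2 and 1.26 and 2.76 CPM at day 6. The markers of early definitive endoderm took the other direction, SOX17 from 53.8 and 58.9 to 5.49 and 7.49 CPM and FOXA2 from 53.8 and 59.4 to 9.06 and 23.4 CPM.

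Replicate 2 at day 6 was thus the higher library for most endoderm, collagen and imprinted genes, and also for 12 of 15 endothelial markers and 16 of 24 genes of the epithelial-mesenchymal transition. Replicate 1 was the higher for most sarcomere genes, for 22 of 30 genes of muscle energy supply and for 8 of 8 cardiomyocyte markers. The part of this difference in the other results was not tested. Without day 6 replicate 2, 14 endoderm and liver markers still rose, 11 of them called, and their median was 6.22. In the same fit 22 collagen and matrix genes rose and 38 sarcomere genes, 31 of these called. Without day 6 replicate 1, 14 endoderm and liver markers, 26 collagen and matrix genes and 38 sarcomere genes rose. Of the genes named here, 53 of 178 had a fitted fold that moved by over 1.5 times when 1 library was left out, and 26 of them were at the floor on 1 day. Among the others, LEFTY1 went from a log2 fold change of -6.22 to -11.08 without day 6 replicate 1, and FGF9 from 5.09 to 10.27 and RARB from 9.27 to 13.51 without day 2 replicate 1, the library that held their day 2 counts.

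Endothelial markers rose in 9 of 15 tested, 7 of them called, and fell in 2, and day 6 replicate 2 was the higher library in 12. Of all genes, 25.9% rose and 4.88% were called higher. VE-cadherin (CDH5) had 0 and 0 CPM at day 2 and 10.6 and 16.2 CPM at day 6, at least 94.7-fold higher, and PECAM1 had 0.0646 and 0 CPM at day 2 and 4.01 and 5.59 CPM at day 6. Of 13 blood markers, 6 rose and 3 fell, and 1 fell without day 6 replicate 1. TAL1, a factor of blood and endothelial precursors, had 0.0323 and 0 CPM at day 2 and 5.05 and 9.41 CPM at day 6, and PTPRC and GATA1 had 0 counts in all 4 libraries. Smooth muscle markers rose in 7 of 10. ACTA2, the actin of smooth muscle that early CMs also express, had 0.129 and 0 CPM at day 2 and 554 and 364 CPM at day 6.

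Of 10 epicardial markers, 3 rose and 2 fell, near the shares of all genes (25.9% rose and 23.9% fell). WT1, a defining one, had 0.0646 and 0 CPM at day 2 and 0.0871 and 0.475 CPM at day 6 (edgeR adjusted p = 0.08, 0.0442 without day 6 replicate 1). Among neural markers, 9 of 14 fell and 2 rose. SOX1, a marker of the neural plate, had 0.355 and 0.561 CPM at day 2 and 0 and 0.0238 CPM at day 6. Paraxial mesoderm and skeletal muscle markers had 7 members tested, of which 2 rose and 3 fell, and 1 rose when either day 2 library or day 6 replicate 2 was left out. MYOD1 and MYOG had 0 counts in all 4 libraries. The summed level of the neural list went from 399 and 400.0 to 109 and 112 CPM, and that of the paraxial list from 27.0 and 27.4 to 13.3 and 11.3 CPM.

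**Figure D5:**
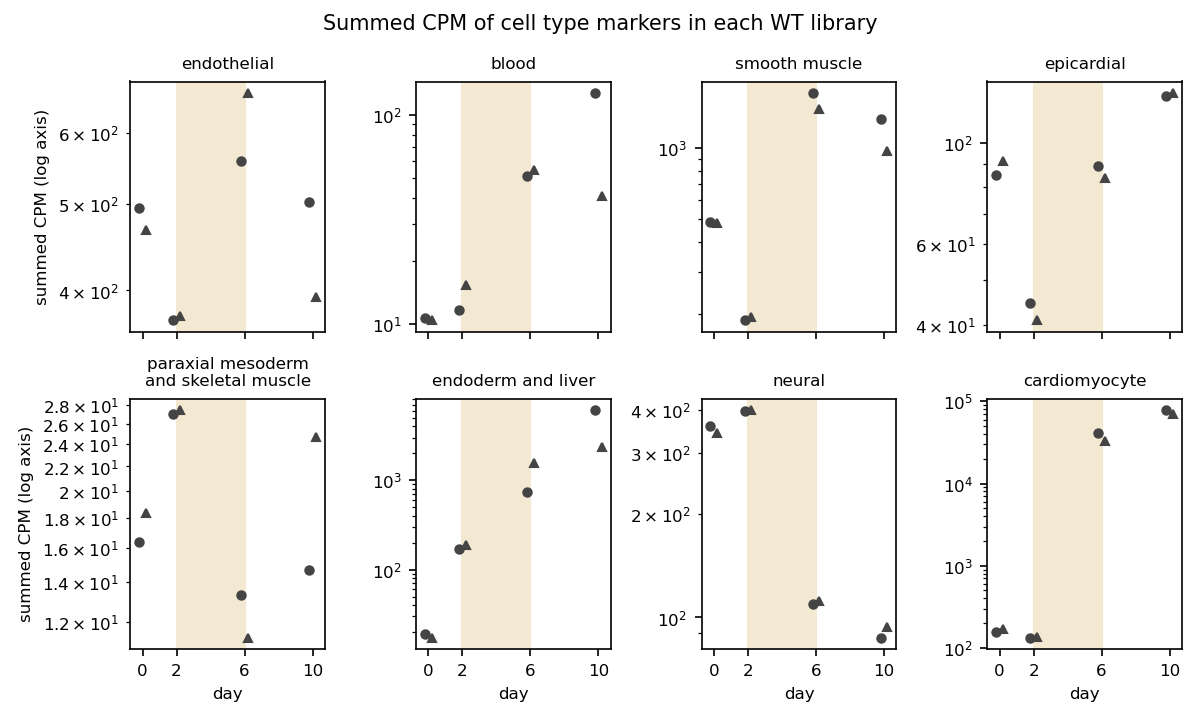
Summed CPM of 8 lists of cell type markers (vertical axes, logarithmic, a different range in each panel) in each WT library by day (horizontal axes), with circles for the lower replicate number and triangles for the higher. The cardiomyocyte sum rose from 133 and 136 to 40688 and 32772 CPM across the shaded interval, and the endoderm and liver sum from 170 and 190 to 740 and 1553 CPM. TTN alone gave 30101 and 24439 CPM of the cardiomyocyte sum at day 6.

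The days on either side show where in the course each class was highest. The mean CPM of genes called higher peaked at day 6 for 420 of 841 (49.9%) and at day 10 for 412 (49.0%). NKX2-5 was at 108 and 173 CPM at day 10, in replicates 3 and 4, and MYH6 at 7597 and 6713 CPM. ISL1 by contrast was at 65.6 and 65 CPM and BMP4 at 36.2 and 38.6 CPM, below their day 6 libraries, and CBLN2 at 17.6 and 25.3 CPM. Of the 841, 261 were higher and 258 lower at day 10 than at day 6 at 5% FDR in edgeR. Genes called lower had peaked at day 2 in 381 of 596 (63.9%) and at day 0 in 193 (32.4%). CER1 had been at 3.34 and 4.76 CPM at day 0 and DKK4 at 0.0522 and 0.0768 CPM, against 789.7 and 803 CPM for POU5F1. These neighbouring intervals share the day 2 or day 6 libraries, so no relation between them was computed.

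The same interval in the shRNA cells was compared with WT by an interaction term, which tests whether the change from day 2 to day 6 differed between lines. The targeted genes were read first, on the scale of this fit. At day 6 NKX2-5 was at 1.00 and 0.765 CPM in NKX2-5 shRNA cells against 86.3 and 50.8 CPM in WT cells. ZNF503 was at 0.625 and 0.659 CPM in its shRNA cells against 8.93 and 9.40 CPM. ZEB2 was at 55.2 and 58.9 CPM in its shRNA cells against 99.2 and 94.8 CPM. At day 2 the ZEB2 libraries did not overlap either, with 11.2 and 12.7 against 18.5 and 18.2 CPM, whereas those of ZNF503 did. The levels also differed in the lines aimed at other genes. At day 6 ZEB2 was at 20.7 and 20.6 CPM in NKX2-5 shRNA cells and at 11.2 and 12.9 CPM in ZNF503 shRNA cells, below its level in its own line. NKX2-5 was at 2.97 and 2.10 CPM with the ZNF503 shRNA, and ZNF503 at 0.593 and 0.906 CPM with the NKX2-5 shRNA. With the ZEB2 shRNA, NKX2-5 was at 37.6 and 35.9 CPM and ZNF503 at 13.3 and 12.2 CPM. The 3 tests share the WT libraries. At 8-fold and 1% FDR, the WT change differed from that of NKX2-5 shRNA cells in 656 of 17358 genes (3.78%), from that of ZEB2 shRNA cells in 39 (0.225%) and from that of ZNF503 shRNA cells in 662 (3.81%). Against NKX2-5 shRNA cells the WT change was the more positive in 449 and the more negative in 207. Against ZNF503 shRNA cells these were 391 and 271, and against ZEB2 shRNA cells 12 and 27.

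Sarcomere genes were among those that differed. Counts here are at 8-fold and 1% FDR unless another threshold is named. Of 41 tested in these fits, 19 had a more positive change in WT than in NKX2-5 shRNA cells. Against ZNF503 shRNA cells 16 were more positive in WT and 1 more negative, and against ZEB2 shRNA cells 1 was more positive. At 5% FDR alone, 28, 28 and 11 were more positive in WT against the NKX2-5, ZNF503 and ZEB2 shRNA cells, and 2 more negative against ZNF503 shRNA cells. Of all 17358 genes, 7988, 8364 and 1023 differed by it in either direction. The median log2 fold change over these 41 was 7.33 in WT cells, 1.69 in NKX2-5 shRNA cells, 3.28 in ZNF503 shRNA cells and 5.37 in ZEB2 shRNA cells. Of 30 cardiac transcription factors, 10 had a more positive change in WT than in NKX2-5 shRNA cells and 6 than in ZNF503 shRNA cells, while 3 changed more negatively in WT than with the ZNF503 shRNA. The median over these 30 was 2.50 in WT cells, 1.81 with the NKX2-5 shRNA, 3.59 with that against ZNF503 and 3.09 with that against ZEB2. Endoderm and liver markers stood the other way against the NKX2-5 and ZNF503 shRNA cells only. The WT change was the more negative in 4 of 20 against NKX2-5 shRNA cells and in 7 of 20 against ZNF503 shRNA cells. Against ZEB2 shRNA cells 0 of 20 differed. The median was 7.03 in WT cells, 7.97 with the NKX2-5 shRNA, 8.63 with that against ZNF503 and 5.15 with that against ZEB2. The pluripotency list had a median of -2.82 in WT cells against -4.17 with the NKX2-5 shRNA, -2.65 with that against ZEB2 and -3.35 with that against ZNF503. At 5% FDR alone 12, 8 and 10 of its 20 members differed, where 7988, 1023 and 8364 of all genes did. The WT change was the more positive in 7 and the more negative in 5 of these against NKX2-5 shRNA cells. Against ZEB2 shRNA cells the counts were 1 and 7, and against ZNF503 shRNA cells 5 and 5. At 8-fold and 1% FDR 0 members differed in each comparison.

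By the rule for this test, CKM, PPP1R3A and FSD2 differed most against NKX2-5 shRNA cells. CKM, on the means of 2 libraries, had 0 CPM at day 2 and 24.4 CPM at day 6 in WT cells and 0.0421 CPM at day 2 and 0 CPM at day 6 in NKX2-5 shRNA cells, a difference of 15.81 ± 3.79 in log2 fold change (edgeR adjusted p = 0.00331). With 0 counts on 1 side in each line, that number depends on the prior count and is no bound. Against ZEB2 shRNA cells, LEFTY2 fell in WT, with 3.45 CPM at day 2 and 0.166 CPM at day 6, and rose in ZEB2 shRNA cells, with 2.48 CPM at day 2 and 27.8 CPM at day 6, a difference of -7.65 ± 0.41 (edgeR adjusted p = 2.34e-08). GPR55 had 0.388 CPM at day 2 and 1.54 CPM at day 6 in WT cells and 0 CPM at day 2 and 17.2 CPM at day 6 in ZNF503 shRNA cells, a difference of -10.19 ± 1.34 (edgeR adjusted p = 1.47e-05).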

How the data were processed

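Total RNA of H1 cells was sequenced from stranded libraries. The authors aligned the reads to hg19 (GRCh37), kept 1 best hit per read and counted those within the region of each RefSeq accession, so the deposited values are raw read counts per accession. The processing notes name TopHat2 2.0.14, Bowtie2 2.2.1.0, SAMtools 0.1.19.0 and edgeR. The study calls its replicates biological, and p-values measure the spread between these libraries. Of 41627 accessions, 40285 (with 97.1% of the counts) matched 23189 RefSeq symbols, and for the 7913 symbols with several accessions the one with the largest total was used. Left out were 1342 unmatched accessions and 4 day 10 libraries (WT and ZEB2 shRNA, replicates 1 and 2), whose values did not follow the accessions (median Spearman correlation with replicate 3 of 0.00793 to 0.0131).

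The 8 WT libraries of days 0, 2, 6 and 10 were fitted together in edgeR 4.0.16 (R 4.3.3) with filterByExpr, TMM factors and the quasi-likelihood test (4 residual degrees of freedom), and p-values were adjusted by Benjamini-Hochberg over the whole table. The SE of a log2 fold change was derived from its F statistic. The thresholds of 8-fold and 1% FDR follow the study's methods. Lines were compared in 1 fit of the 16 libraries of days 2 and 6. On simulated counts of 16301 genes for day 6 against day 2, 92% of genes changed 2-fold and 100% of those changed 4-fold passed 5% FDR, and 100% of those changed 16-fold were called. The changed genes were drawn only from genes well above the floor at day 2, and the simulated spread followed the trend over genes. These shares therefore do not hold for genes near the floor or with a larger spread. Replicates differed by more than sampling noise (chi-square per gene of 5.41 at day 2 and 24.6 at day 6).

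Named outside the lists were the 10 coding genes with the largest rise and the 10 with the largest fall among those called. They had no overlap and 1 CPM or more in the higher group. By the same rule 3 noncoding genes were taken in each direction. The 5 with the largest difference in mean CPM in each direction, the targeted genes and the genes nearest the fold limit were also named. For each test between lines, 3 called genes in each direction were taken, at 1 CPM or more in the highest group. The interval, whose libraries are set by their labels, and the gene lists were chosen with earlier results of these data known. TDGF1 and BVES were read as CRIPTO and POPDC1, and TET3 was not matched. The values of 1 gene that these rules cover are not reported here. Positions are from GENCODE (GRCh37), promoters from RefSeq (GRCh38.p14). Alternatives were DESeq2 1.42.0, edgeR's exact test, other factors, filters, prior counts, accessions, thresholds and libraries, a replicate term, and each library left out.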

Additional observations from a re-analysis of the deposited data

Results flagged for a closer look

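In 18 results the change from day 2 to day 6 differed between WT cells and an shRNA line by the interaction test. All passed 8-fold and 1% FDR and had a mean of 1 CPM or more in the highest group. Among such genes they were the 3 furthest in each direction for each line. Differences are WT change minus line change, in log2 fold change, and levels are means of 2 libraries. Where 1 day held no counts, the fitted difference depends on the prior count and is no bound.

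Against NKX2-5 shRNA cells, PPP1R3A, a glycogen-targeting subunit of protein phosphatase 1, had 0 CPM at day 2 and 25.4 CPM at day 6 in WT cells and 0.0176 CPM at day 2 and 0 CPM at day 6 in the shRNA cells, a difference of 15.83 ± 3.91. FSD2 had 0 CPM at day 2 and 17.2 CPM at day 6 in WT cells and 0.0509 CPM at day 2 and 0 CPM at day 6 in the shRNA cells (15.82 ± 3.77). CKM, described with the comparison of lines, had a difference of 15.81 ± 3.79. In the other direction KRT4, a keratin, had 0.0493 CPM at day 2 and 0.0242 CPM at day 6 in WT cells and 0 CPM at day 2 and 4.09 CPM at day 6 in the shRNA cells (-11.16 ± 2.14), with an edgeR adjusted p of 0.9999 when WT day 2 replicate 1 was left out. LINC03033 had 0.162 CPM at day 2 and 3.39 CPM at day 6 in WT cells and 0 CPM at day 2 and 36.4 CPM at day 6 in the shRNA cells (-9.04 ± 1.31). SLC39A5, a zinc transporter, had 0.146 CPM at day 2 and 6.1 CPM at day 6 in WT cells and 0 CPM at day 2 and 47.8 CPM at day 6 in the shRNA cells (-8.39 ± 2.15), with an edgeR adjusted p of 0.0665 without WT day 2 replicate 1.

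Against ZEB2 shRNA cells, PPFIA2 had 0 CPM at day 2 and 4.44 CPM at day 6 in WT cells and 0.335 CPM at day 2 and 1.08 CPM at day 6 in the shRNA cells, a difference of 8.60 ± 1.66 (edgeR adjusted p = 0.0551 without WT day 2 replicate 1). FXYD1, a regulator of the sodium pump, had 2.16 CPM at day 2 and 2.95 CPM at day 6 in WT cells and 1.94 CPM at day 2 and 0.0505 CPM at day 6 in the shRNA cells (4.96 ± 0.82). PPP1R14C had 1.26 CPM at day 2 and 18 CPM at day 6 in WT cells and 3.3 CPM at day 2 and 1.73 CPM at day 6 in the shRNA cells (4.70 ± 0.60). LEFTY2 had a difference of -7.65 ± 0.41, and the nuclear receptor NR0B1 one of -5.56 ± 0.53, from 2.56 CPM at day 2 and 0.293 CPM at day 6 in WT cells and 1.92 CPM at day 2 and 11.1 CPM at day 6 in the shRNA cells. ITPRID1 had 0.388 CPM at day 2 and 0.0606 CPM at day 6 in WT cells and 0.578 CPM at day 2 and 5.31 CPM at day 6 in the shRNA cells (-5.47 ± 0.86).

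Against ZNF503 shRNA cells, ADRA1D, an adrenergic receptor, had 0 CPM at day 2 and 1.11 CPM at day 6 in WT cells and 0.364 CPM at day 2 and 0 CPM at day 6 in the shRNA cells, a difference of 14.84 ± 2.42. PPFIA2, at the same WT levels, had 0.0333 CPM at day 2 and 0 CPM at day 6 in the shRNA cells (14.28 ± 2.69), and PPP1R3A 0.0333 CPM at day 2 and 0.0521 CPM at day 6 (13.00 ± 2.39). KRT4 had 0 CPM at day 2 and 9.22 CPM at day 6 in the shRNA cells (-12.33 ± 2.12), again with an edgeR adjusted p of 0.9999 without WT day 2 replicate 1. GPR55 had a difference of -10.19 ± 1.34. SCEL had 0.0963 CPM at day 2 and 0 CPM at day 6 in WT cells and 0.0166 CPM at day 2 and 1.02 CPM at day 6 in the shRNA cells (-9.86 ± 2.41). The 3 tests share the WT libraries.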

How the results depend on the processing

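The count of genes called between day 2 and day 6 in WT cells was 1437 and lay between 1246 (prior count 2) and 1545 (all 30 libraries fitted) under the other libraries, tests, factors, filters and accessions. DESeq2 called 1370. When each of the 4 libraries was left out in turn it lay between 1140 and 1248, the genes at 5% FDR (8581 with all) between 6260 and 7147, and the list members changed (418 with all) between 374 and 398. Thresholds moved the counts: 4-fold and 10% FDR gave 2624 genes (1410 higher, 1214 lower), 2-fold and 5% FDR gave 4653 (2318 higher, 2335 lower), and a test against a fold change of 2 at 1% FDR gave 2254, 1014 of them lower. Between lines, the first of these thresholds gave 1989 genes against NKX2-5 shRNA cells, 260 against ZEB2 shRNA cells and 1985 against ZNF503 shRNA cells, and the second 4497, 620 and 4642. With each of the 4 WT libraries left out these counts at 8-fold and 1% FDR were 553 to 794, 31 to 45 and 576 to 809. No shRNA library was left out in turn. Over the whole promoter window the motif shares were 7.71% for TCF/LEF, 10.5% for GATA, 1.28% for the CArG box and 11.9% for the TATA box.

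No deviation shared by same-numbered libraries was seen: the deviations at days 2 and 6 had a correlation of -0.00632 across genes. Each day gives only the difference between its replicates, so this cannot show whether same-numbered libraries came from the same differentiation. The labels do not say. With a replicate block over days 0, 2 and 6, 1414 genes were called and 9864 passed 5% FDR, against 1493 and 9998 for the same 6 libraries without it, a fit chosen after seeing the data. The block gave 646, 36 and 655 genes for the 3 comparisons of lines.

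Of 3017 values of 178 named genes under the alternatives, 34 lost the 5% threshold, 10 gained it and 4 turned in direction, all of CASQ2: -0.12 with no factors, -0.056 with upper quartile factors, -0.08 without day 2 replicate 2 and -0.17 without day 6 replicate 1, where leaving out day 6 replicate 2 gave 0.29. The losses were of SMAD4, TET1, BMPR2, GPR55, ATP2A2, CHRDL1, TWSG1, LIN28A, HOXB6, COX7A1 and APLNR. The cause was not tested. With 2 libraries a day and down to 14630405 counts, genes near the floor have bounds rather than fold changes.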
